A study of Mus musculus with 4 samples.

Results

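Erythropoietin (Epo) and Kit signalling in red cell precursors was followed here through 10 genes: the receptors Epor and Kit, the kinase Jak2, the transcription factors Stat5a and Stat5b, the feedback inhibitors Cish, Socs2 and Socs3, and the survival genes Pim1 and Bcl2l1. They were chosen by gene symbol from the array's annotation and not by their values, though earlier results of these data were known. Each was measured by 1 probe set, so 10 of 25206 probe sets were taken. RNA came from mouse fetal liver cells at stage E14.5 that had been selected on magnetic beads for Ter119, a surface antigen of the red cell lineage. There were 2 biological replicates of RNA precipitated with an antibody against Cpeb4 (the Cpeb4 immunoprecipitate, or IP), 1 precipitate with rabbit IgG and 1 array of total input RNA. Cpeb4 binds cytoplasmic polyadenylation elements in mRNA, and the question was which mRNAs were associated with it. Strain, the number of pooled livers, and whether the control arrays came from the same cells as an IP replicate were not given in the labels. The labels name no genotype or drug.

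Epo binds a pair of Epo receptors on the erythroid progenitor, which brings the bound Jak2 kinases together. Jak2 then phosphorylates the receptor tails, and the Stat5 proteins that dock there enter the nucleus and switch on survival genes and their own inhibitors. Kit, the receptor of stem cell factor, acts in earlier progenitors through phosphatidylinositol 3-kinase and Ras, and its transcript normally declines as erythroblasts mature.

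Stat5 proteins bind the palindrome TTCNNNGAA and Gata1, the erythroid zinc finger factor, binds AGATAA and close variants. These motifs are shown as background to the pathway. The arrays measured RNA and do not bear on binding. RefSeq promoter windows (mouse build GRCm38.p6, 250 bases before to 50 after an annotated start) were found for 9 of the 10 genes, in 15 windows. TTCNNNGAA, which reads the same on both strands, was in 2 of the 15, those of Cish and Socs3, and in 8.3% of all 32851 windows. AGATAA, on either strand, was in 2 of the 15, those of Epor and Bcl2l1, and in 11.2% of all windows. The motifs below are in capitals, read 5′ to 3′ on the strand of the gene. In Cish 2 palindromes lay side by side, from bases 1 and 12 after the annotated start, while Socs3 had 1, which began 154 bases before it, and the Epor match began 54 bases before its start.
Cish (chr9:107296654-107296683, plus strand): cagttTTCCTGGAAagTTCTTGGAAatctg
Socs3 (chr11:117969504-117969528, minus strand): aaccagccTTCTTAGAAgggagggg
Epor (chr9:21963617-21963638, minus strand): gctgtagcTTATCTgtccccag

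All values are deposited log2 expression values, and differences are on that scale, so 1 unit is a 2-fold difference. The limma test took in genes whose 4-array mean was at or above 3.84, which is the 40th percentile among named genes. This left 13911 genes, all 10 members among them, and "rose" and "fell" are used only at an adjusted p below 0.05. Both controls were single arrays assumed to vary like the IP replicates, so the number of arrays limits every comparison. Values on the IgG array had a smaller spread than on the other arrays (SD 1.74, against 2.05 to 2.13), and this touches every difference from it. Among the 6956 tested genes at or above the median level of 5.68, which held 9 of the 10 members, the median IP minus IgG difference was 0.63 and 57.4% rose. Among the genes below that level the median was -0.20 and 12.5% rose. When the 4 arrays were quantile normalized again, the above-median genes had a median of 0.07. The red cell transcripts were present on each array: Slc4a1, the anion exchanger, lay between 11.94 and 12.20 on the 4 arrays, and Alas2, the erythroid heme enzyme, between 11.42 and 11.56. The Cpeb4 transcript rose against IgG by 0.50 (limma adjusted p = 0.0279) and against input by 0.52 (limma adjusted p = 0.0481). It lay between 10.39 and 10.93 on the 4 arrays, and its difference from IgG was below the 0.63 median of above-median genes.

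Against IgG, Jak2, Stat5b and Cish rose in the IP and no member fell. That is 3 of 10, where 35.0% of all tested genes rose and 19.7% fell, so the members' share was near the background. It was below the 57.4% that rose among above-median genes, of which 7.19% fell. With the arrays quantile normalized again none of the 10 rose, where 31.0% of all tested genes did, and 4 (Epor, Kit, Stat5a and Bcl2l1) fell, where 29.2% of all tested genes did. Against input, Kit and Stat5a rose (2 of 10, background 9.38%) and Epor and Socs3 fell (2 of 10, background 13.8%). After that normalization Kit and Stat5a still rose (background 9.12%), and neither Epor nor Socs3 passed (background 9.90%). No member rose against both controls, which 7.03% of tested genes did; the comparisons share the IP arrays. By size, 0 of 10 members exceeded IgG by 2-fold or more in each replicate (background 18.6%) and 1, Kit, was so above input (background 4.04%). None was lower by 2-fold or more in each replicate than IgG (background 6.24%) or input (background 5.18%). The members' median difference was 0.17 from IgG and 0.04 from input, beside 0.08 and -0.01 over all tested genes.

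**Figure D1:**
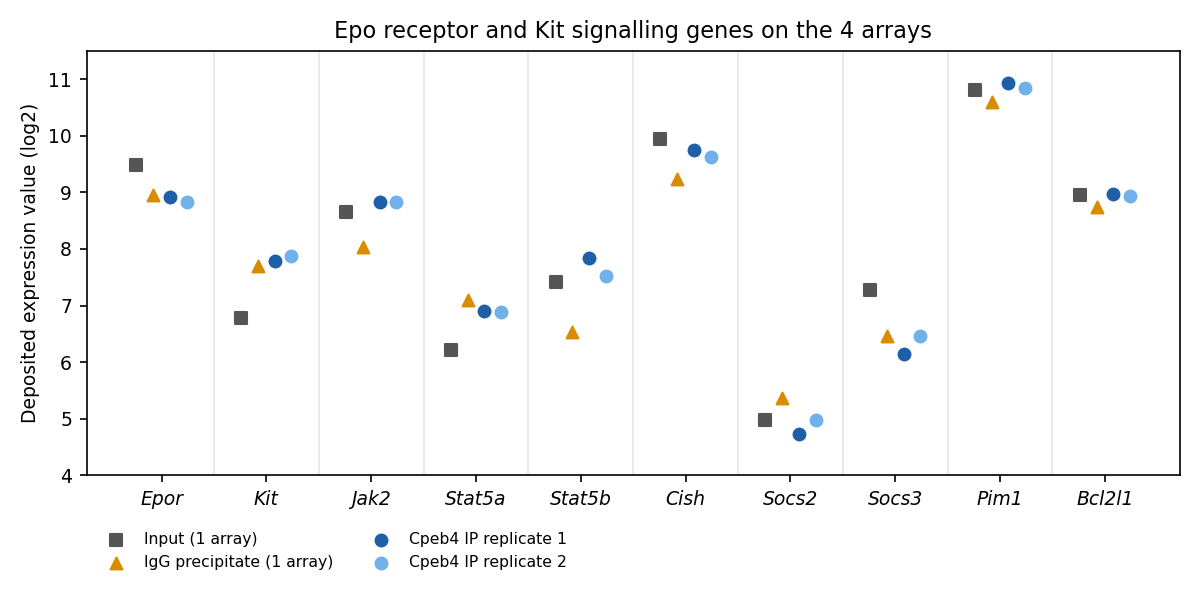
Deposited log2 expression value of each of the 10 genes (x axis) on each array, with 1 point per array (input, IgG and the 2 Cpeb4 IP replicates) and no averaging. Kit and Stat5a are lowest on the input array, Epor and Socs3 highest there, Jak2 and Stat5b lowest on the IgG array, and Pim1 and Bcl2l1 hardly move.

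The receptors went opposite ways against input and lay close to IgG. Epor, the Epo receptor, had 9.48 in input, 8.94 in IgG, and 8.92 and 8.83 in IP replicates 1 and 2. The 3 precipitates lay together, below input. Epor fell against input by 0.60 (SE 0.12, limma adjusted p = 0.0388), a value 1.52-fold lower, and differed from IgG by -0.07 (SE 0.12, limma adjusted p = 0.706). The call against input was lost in 4 of the settings tried (no filter, both fits with ties included, quantile normalization again), with adjusted p between 0.0562 and 0.139.

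Kit had 6.78 in input, 7.69 in IgG, and 7.79 and 7.87 in the IP replicates. Here too the 3 precipitates lay together, but above input. Kit rose against input by 1.05 (SE 0.12, limma adjusted p = 0.0142), or 2.07-fold, and was 0.14 above IgG (SE 0.12, limma adjusted p = 0.41). Its difference from IgG was -0.59 after quantile normalization again (limma adjusted p = 0.0213), a change of sign. The call against input was lost with ties included (adjusted p = 0.0567 in the plain fit and 0.0906 with trend and robust).

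Kit also marks cells other than erythroblasts, such as mast cells and stem and progenitor cells, whose markers were set beside it. Neither cell type is known to carry Ter119, and how far the bead selection removed them was not tested. Over all tested genes 9.38% rose and 13.8% fell against input. Of 6 tested stem and progenitor markers 4 rose against input and none fell, with Cd34 up by 1.56 and Flt3 by 1.34. The list's summed level was 7.91 in input, 8.30 in IgG and 8.81 to 8.87 in the IP. Of 7 tested mast cell and basophil markers 2 rose against input and 1 fell, with a list median of 0.01. Hdc rose by 1.96, Tpsb2 rose from 3.27 in input to 4.77 and 4.78 in the IP, and Cpa3 fell by 0.58. Ms4a2, Mcpt8, Cma1 and Mitf did not pass. Tpsb2 lay under the filter level of 3.84 in input. The filter took the 4-array mean, so genes low in both controls could enter the test through the IP arrays. Fcer1a, a chain of the IgE receptor, stayed between 2.12 and 2.59 and was not tested. The mast cell and basophil list summed to 8.88 in input, 8.82 in IgG and 9.35 to 9.48 in the IP. Other lists with markers that rose against input were those of megakaryocytes (5 of 6), neutrophils (6 of 7), macrophages (4 of 7), hepatocytes (2 of 4) and endothelium (1 of 4), and none of their members fell. Of 8 tested erythroblast markers 3 fell (Klf1 by 1.71, Gata1 by 1.40 and Epb42 by 1.23) and none rose, and the list summed to 14.26 in input, 13.91 in IgG and 14.01 to 14.02 in the IP. With the arrays quantile normalized again, 1 erythroblast marker rose and 2 fell against input, and 3 stem and progenitor markers rose (background 9.12% up and 9.90% down). Of the other lists, 2 mast cell and basophil, 4 megakaryocyte, 6 neutrophil, 5 macrophage, 3 hepatocyte and 0 endothelium markers then rose, and none fell. The fall of Cpa3 and the endothelium rise against input were thus lost. Against IgG, 3 of 7 mast cell, 4 of 6 progenitor, 4 of 6 megakaryocyte, 4 of 7 neutrophil, 4 of 7 macrophage, 3 of 4 hepatocyte and 1 of 4 endothelium markers rose. The background there was 35.0% up and 19.7% down. In the same comparison 1 erythroblast marker fell, as did Gata2 of the progenitor list (by 0.59) and C1qa of the macrophage list (by 0.67). After quantile normalization again, neutrophil markers had 4 up and 3 down against IgG, megakaryocyte markers 2 and 1, and progenitor markers 3 and 1. Erythroblast markers had 2 up and 2 down. Mast cell markers had 4 up, macrophage 3, hepatocyte 4 and endothelium 2, with none down. The background was then 31.0% up and 29.2% down. The part of these lists in the members' differences was not tested. The IP and IgG arrays hold precipitated RNA and the input array does not. In such bulk RNA, fewer cells of a type, less RNA per cell and less recovery in the precipitate cannot be told apart.

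**Figure D2:**
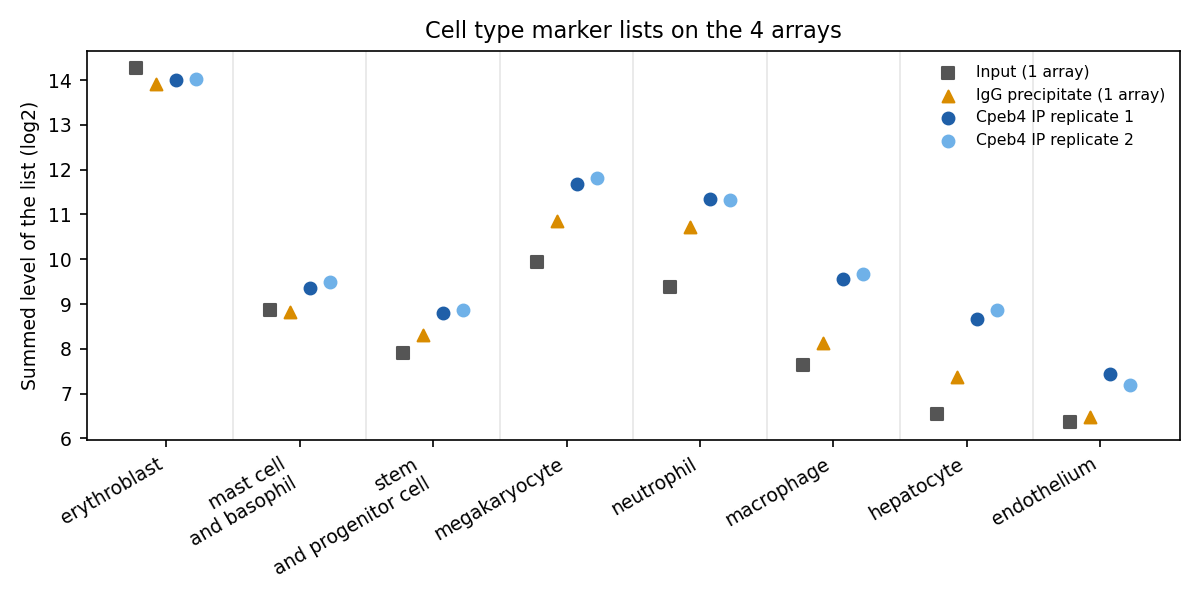
Summed level of each cell type marker list (log2 of the summed linear values, y axis) on each of the 4 arrays, with 1 point per array. The erythroblast list is highest in input, and the other 7 lists are highest in the IP replicates. Mast cell and basophil markers are the one list of these 7 in which IgG lay just under input. A sum mostly follows the highest genes of its list, in the IP Hdc for mast cells and basophils and Pecam1 for endothelium, and need not hold for the others.

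Among the signal carriers, Jak2 and Stat5b stood above IgG and Stat5a stood above input. Jak2, the kinase bound to the Epo receptor, had 8.66 in input, 8.03 in IgG, and 8.84 and 8.83 in the IP. IgG was the low array, and the IP replicates differed from each other by far less than from it. Jak2 rose against IgG by 0.80 (SE 0.12, limma adjusted p = 0.00796), or 1.75-fold, and was 0.18 above input (SE 0.12, limma adjusted p = 0.388), a difference that passed only in the fits with ties included (0.0265 and 0.00907). After quantile normalization again its difference from IgG was 0.13 and did not pass (limma adjusted p = 0.114).

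Stat5b had 7.41 in input, 6.54 in IgG, and 7.84 and 7.51 in the IP replicates. The IgG array was again lowest, and the IP replicates were farther apart than for the other signal carriers (SD 0.23). Stat5b rose against IgG by 1.14 (SE 0.18, limma adjusted p = 0.0101), or 2.20-fold, the largest difference from IgG among the members, and was 0.27 above input (SE 0.18, limma adjusted p = 0.407). Replicate 1 was 1.30 and replicate 2 was 0.98 above IgG. Quantile normalization again left 0.46 (limma adjusted p = 0.18), and with ties included the call was lost too (0.119 in the plain fit and 0.164 with trend and robust).

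Stat5a had 6.22 in input, 7.09 in IgG, and 6.91 and 6.89 in the IP. All 3 precipitates were above input, and IgG was the highest. Stat5a rose against input by 0.68 (SE 0.12, limma adjusted p = 0.0274), or 1.60-fold, and differed from IgG by -0.19 (SE 0.12, limma adjusted p = 0.239), which passed with ties included in the plain fit (0.0365). Of the settings tried that gave a test, none ended the call against input. Stat5a and Stat5b are neighbouring genes with 0 genes listed between them in RefSeq, and they code for closely alike proteins. The array's probe definition was not stated in the sources used here, so signal shared between the 2 probe sets was not tested.

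Of the feedback inhibitors, which bind the activated receptor or Jak2 and end the signal, Cish rose against IgG and Socs3 fell against input. Cish had 9.93 in input, 9.24 in IgG, and 9.75 and 9.62 in the IP. The IP lay between the controls, nearer to input. Cish rose against IgG by 0.44 (SE 0.13, limma adjusted p = 0.0492), or 1.36-fold, and its difference of -0.25 from input did not pass (SE 0.13, limma adjusted p = 0.276), though it did in the common-spread test (0.00725), which gives genes of like level 1 spread. The rise lay at the threshold. It was lost with no filter (adjusted p = 0.0599) and in both fits with ties included (0.128 and 0.175), and after quantile normalization again the difference was -0.028 (adjusted p = 0.836).

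Socs3, which blocks Jak kinases, had 7.28 in input, 6.46 in IgG, and 6.14 and 6.46 in the IP. Input was the high array, and IP replicate 2 equalled IgG. Socs3 fell against input by 0.98 (SE 0.18, limma adjusted p = 0.0314), 1.97-fold, with replicate differences of -1.14 and -0.82. It differed from IgG by -0.16 (SE 0.18, limma adjusted p = 0.514). With ties included the call against input was lost (adjusted p = 0.194 in the plain fit and 0.261 with trend and robust), as it was after quantile normalization again (0.104).

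Socs2 had the lowest values of the 10, with 4.98 in input, 5.37 in IgG, and 4.73 and 4.98 in the IP. IP replicate 2 equalled input. The difference of -0.51 from IgG missed the threshold (SE 0.16, limma adjusted p = 0.0555), and that of -0.13 from input did not pass (SE 0.16, limma adjusted p = 0.708). With the 60th percentile filter and in the common-spread test Socs2 passed against IgG (adjusted p = 0.0437 and 0.0385).

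The survival genes passed in neither comparison. Pim1, a serine/threonine kinase induced by Stat5, had 10.81 in input, 10.59 in IgG, and 10.93 and 10.84 in the IP. IgG was lowest, and the 4 arrays spanned 0.34. Its differences were 0.30 from IgG (SE 0.12, limma adjusted p = 0.11) and 0.07 from input (SE 0.12, limma adjusted p = 0.81). The common-spread test passed its difference from IgG (adjusted p = 0.000543). Bcl2l1 encodes Bcl-xL, which keeps maturing erythroblasts alive, and had 8.94 in input, 8.74 in IgG, and 8.97 and 8.93 in the IP. The array values spanned 0.23, the smallest span of the 10. Differences were 0.21 from IgG (SE 0.12, limma adjusted p = 0.212), which became -0.34 after quantile normalization again (adjusted p = 0.0327), and 0.00 from input (SE 0.12).

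**Figure D3:**
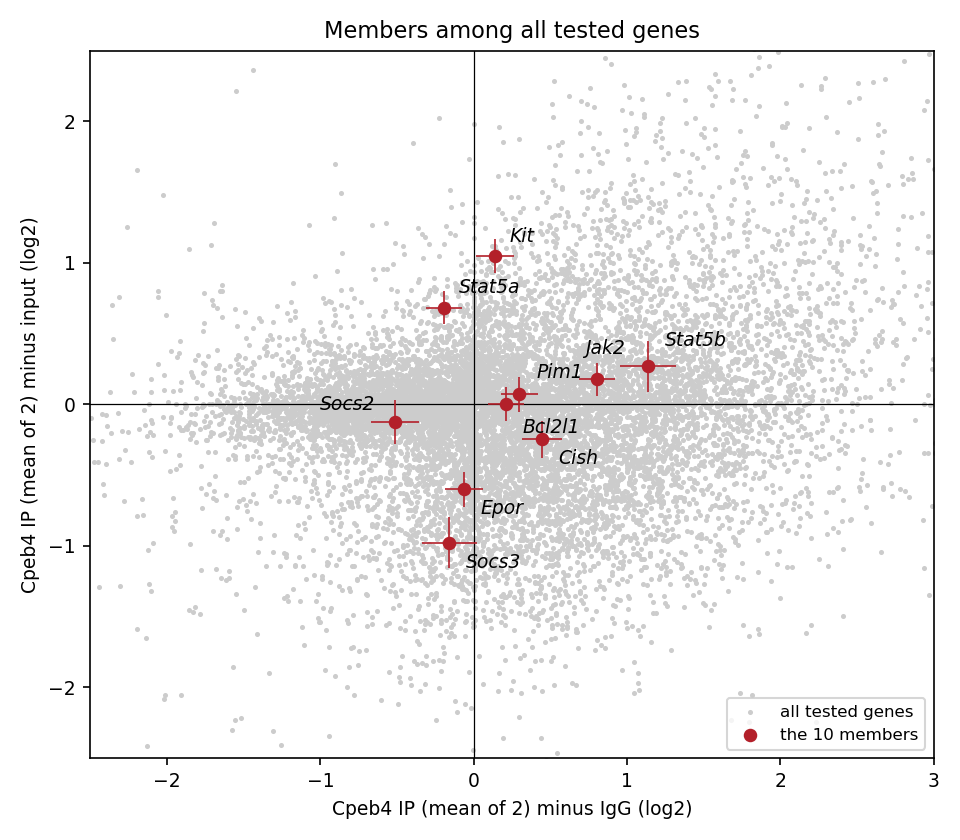
Mean Cpeb4 IP minus IgG (x axis, log2) against mean Cpeb4 IP minus input (y axis, log2) for the 10 members (red, bars are limma standard errors) and all 13911 tested genes (grey), of which 230 lie outside the plotted range. Stat5b and Jak2 lie to the right at small differences from input, Kit and Stat5a lie high and Epor and Socs3 low on the input axis, all 4 at small differences from IgG; both axes share the IP arrays.

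IgG and input, with 1 array each, were compared by size alone and not tested. Kit was 0.91 and Stat5a 0.87 higher in IgG than in input, and Socs2 0.39 higher. The other members were lower in IgG, from -0.21 for Bcl2l1 to -0.82 for Socs3 and -0.87 for Stat5b. None reached 2-fold either way, where 7.93% of tested genes were at least 2-fold higher and 23.9% at least 2-fold lower. These differences and those of the IP from input share the input array. After quantile normalization again Kit was 1.73 and Stat5a 1.65 higher in IgG, both past 2-fold, Stat5b differed by -0.05, and Jak2, Epor and Bcl2l1 were higher in IgG, by 0.20, 0.10 and 0.51.

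The wider pathway was taken from 5 lists holding 84 other genes, of which 74 were analysed here and 71 were tested. Against IgG 41 rose and 1 fell, with a median difference of 0.67, and against input 14 rose and 8 fell, with a median of 0.15. Of the 71, 58 lay among the above-median genes, where 57.4% rose and 7.19% fell against IgG, and 12.9% rose and 21.7% fell against input. The 41 rises of 71 against IgG were near that above-median share. Renormalized by quantiles, 24 rose and 18 fell against IgG, and 15 rose and 6 fell against input. The background for each list's counts was the share of all tested genes, 35.0% up and 19.7% down against IgG and 9.38% up and 13.8% down against input, or 31.0%, 29.2%, 9.12% and 9.90% after quantile normalization again. The genes named were the highest and lowest of each list by the mean of both differences.

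Neither ligand reached the level needed for the test: Epo itself lay between 3.61 and 3.81 and Kitl, the ligand of Kit, between 2.87 and 3.58. Of the 11 tested genes in the list of ligands, other kinases and STATs, 7 rose against IgG and none fell; against input 2 rose and 1 fell. The counts against IgG were 3 and 3 once the arrays were quantile normalized again. Btk, a Tec family kinase, rose by 2.36 over IgG (adjusted p = 0.00173) and by 0.54 over input (adjusted p = 0.0431). It rose against both after that normalization too. Jak3 rose by 1.15 over IgG, from replicate values of 6.14 and 6.62, and was 0.55 above input without passing. Tfr2, a transferrin receptor that associates with the Epo receptor, fell by 0.88 against input (adjusted p = 0.0168) and differed from IgG by -0.01. Stat2, a factor of interferon signalling, differed by -0.15 and -0.46 and passed in neither.

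Among adaptors and the phosphatidylinositol 3-kinase branch, 13 of 19 tested genes rose against IgG and none fell, with a median of 0.70. Quantile normalization again turned this into 4 up and 5 down. Against input 3 rose and 2 fell. Ptpn11, the phosphatase Shp2 that carries signal from Kit to Ras, rose by 2.04 over IgG and 0.82 over input (adjusted p = 0.00189 and 0.0238). Plcg2, a phospholipase, rose by 0.70 over IgG and by 1.76 over input. Its difference from IgG was 0.04 after quantile normalization again. Shc1, an adaptor of the Epo receptor, fell by 0.84 against input (adjusted p = 0.039). Foxo3, a transcription factor held out of the nucleus by Akt, had 9.89 in input and 9.18 on each of the 3 precipitate arrays. Against input its -0.70 missed the threshold (adjusted p = 0.0533).

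Of 9 tested genes of the Ras-MAPK branch 7 rose against IgG and none fell, with a median of 1.24; with the arrays normalized again it was 6 and 2. Against input 2 rose and none fell. Rps6ka3, a kinase activated by Erk, rose by 2.13 over IgG and was 0.31 above input. Nras rose by 1.25 over IgG and 0.78 over input (adjusted p = 0.00318 and 0.021). Map2k2 had 8.46 in input and 8.71 on each of the 3 precipitate arrays, and Araf differed by 0.04 from IgG and -0.46 from input; neither passed.

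Of 19 tested negative regulators outside the 10 members, 9 rose against IgG and none fell; against input 5 rose and 3 fell. With the arrays normalized again the counts were 8 and 6 against IgG and 5 and 2 against input. Highest by the mean of both differences were Socs6, of the same family as Socs2 and Socs3 and an inhibitor of Kit, and Spred1, an inhibitor of Ras. Socs6 had 4.89 in input, 4.23 in IgG, and 6.21 and 6.39 in the IP, so both replicates were well above both controls. It rose by 2.07 over IgG (SE 0.14, adjusted p = 0.002) and 1.41 over input (SE 0.14, adjusted p = 0.0117). Spred1 rose by 2.08 and 1.21 (adjusted p = 0.00182 and 0.0118). Both rose against both controls after quantile normalization again as well. Pias1 fell by 0.91 against input, and Pias3 differed by -0.49 from IgG and -0.04 from input without passing. Socs4, Cbl and Sh2b3 were chosen after their values were seen, Socs4 for its larger difference from IgG, Cbl and Sh2b3 because they act on Kit or Jak2. Socs4, another member of the Socs family, rose by 2.46 over IgG, more than Socs6 or Spred1, and by 0.67 over input (adjusted p = 0.00173 and 0.0311). Cbl, a ubiquitin ligase of Kit, rose by 0.82 over IgG and 1.21 over input. Sh2b3, the adaptor Lnk that restrains Jak2, rose by 1.05 and 0.74. In the same list Socs1, Socs7, Ptpn6, Inpp5d and Cblb passed in neither comparison. Ptpn6 differed by -0.01 from IgG and 0.25 from input, and Cblb by 0.26 and -0.42.

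Of 14 other Epo or Stat5 target genes 5 rose and 1 fell against IgG (background 35.0% and 19.7%), and 2 rose and 2 fell against input (background 9.38% and 13.8%), so the rises against IgG and both counts against input were near the background. The same renormalization gave 3 up and 3 down against IgG, and 3 up and none down against input. Ccnd2, a G1 cyclin, had 8.49 in input, 6.19 in IgG, and 8.98 and 8.87 in the IP, so the IgG array stood apart. It rose by 2.74 over IgG (adjusted p = 0.00173) and its 0.44 over input did not pass (adjusted p = 0.0829). Podxl, a sialomucin, rose by 1.70 over IgG and was 0.32 above input. At the other end Erfe, erythroferrone, the hormone by which erythroblasts lower hepcidin, fell by 0.42 against IgG and by 0.69 against input (adjusted p = 0.0464 and 0.0281). Ccnd3, the G1 cyclin of late erythroblasts, fell by 0.81 against input and differed by 0.14 from IgG, or -0.50 after quantile normalization again.

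Among these named genes of the wider lists, some calls were lost in both fits with ties included, plain and with trend and robust. They were those of Jak3 and Podxl against IgG, of Erfe and Sh2b3 against both controls, and of Ptpn11, Socs4, Socs6, Spred1, Pias1 and Ccnd3 against input. With trend and robust Ptpn11 and Socs6 also lost theirs against IgG. Quantile normalization again ended the calls of Jak3, Podxl, Plcg2 and Cbl (0.08, adjusted p = 0.24) against IgG and of Erfe and Ccnd3 against input. Without a filter Btk lost its call against input and Erfe its call against IgG.

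**Figure D4:**
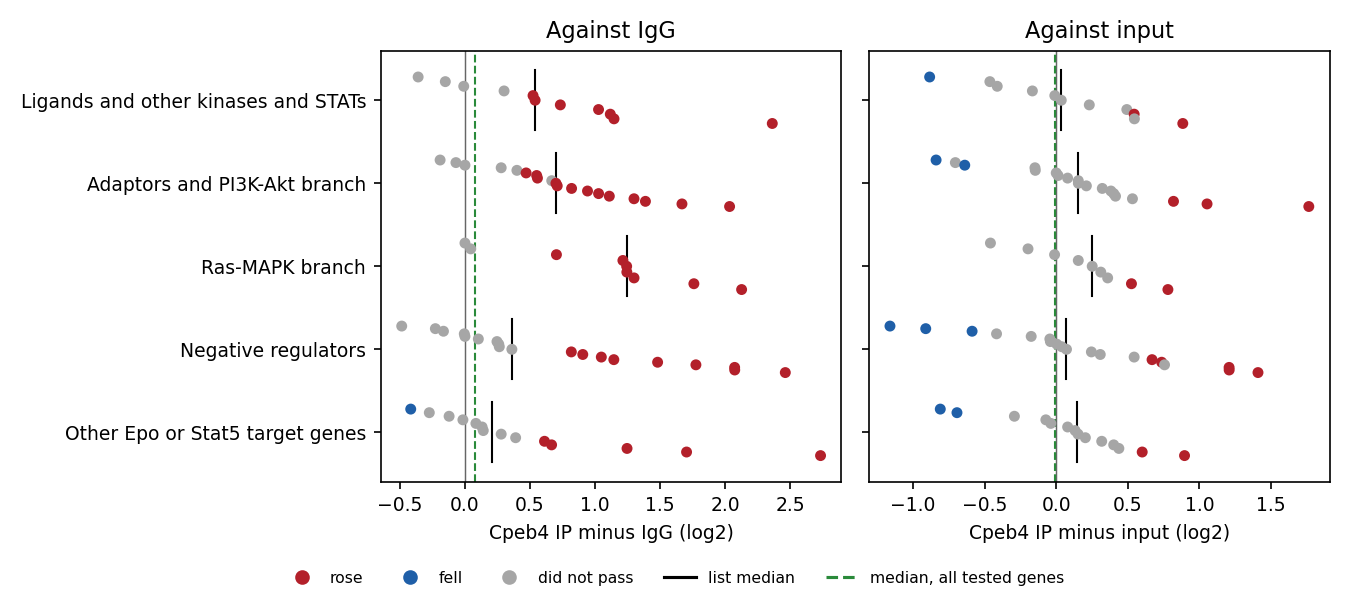
Cpeb4 IP minus IgG (left) and minus input (right), on the log2 scale, for each tested gene of the 5 wider pathway lists; colour shows the limma call, black bars the list medians, and the dashed line the median of all tested genes. Most coloured points against IgG are rises (41, with 1 fall), while against input there are 14 rises and 8 falls; Irs2, which passed in neither, is drawn in both of its lists.

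The genes most like the receptors over the 4 arrays were found by the smallest Euclidean distance between values centred on each gene's mean. For Epor these were Aste1 (distance 0.03), Puf60 (0.04) and Deaf1 (0.04). For Kit they were Trem3 (0.05), Cotl1 (0.07) and Plaur (0.07). Trem3 had 4.73 in input, 5.65 in IgG, and 5.68 and 5.81 in the IP. Such close matches over 4 arrays are a description of these arrays only.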

How the data were processed

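The members and gene lists were chosen with earlier results of these data known. The deposited values are log2 expression values; the authors made them with RMA and the affy package, per the submitters' processing notes, and versions, settings, probe definition and genome build were not given in the sources used here. Symbols came from the array's annotation (23185 of 25206 probe sets had 1); all 10 members matched RefSeq by Entrez number, and 10 of 84 wider genes were not analysed here. The value table holds no scanner intensities or detection calls.

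Groups came from sample titles. With limma 3.58.1 in R 4.3.3, 1 model with 3 groups was fitted to all 4 arrays (1 residual degree of freedom), with Benjamini-Hochberg adjustment of p-values across the 13911 genes in the test. In 3032 of them the IP arrays were equal (within 1e-09). Such ties carry no measure of spread, so these genes took the prior spread (SD 0.110, 3.07 degrees of freedom), which was estimated from the others; with ties included it would be pulled towards 0. The script was tested on simulated data with and without ties. P-values set each difference against the spread between the 2 IP samples, moderated by the prior spread estimated over genes. For tied genes it is the prior spread alone. No spread of the control arrays enters them.

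Named genes were all members, the 2 highest and 2 lowest tested genes of each wider list by the mean of both differences, the 3 genes most like Epor and Kit, and Cpeb4. The summed level of a marker list adds linear values over its analysed genes. Alternatives were no filter (every gene with a symbol tested), a filter at the 60th percentile, and quantile normalization again. Other fits were eBayes with ties included (plain, or with trend and robust) and a common-spread test (1 IP spread per bin of mean value in 20 bins, normal distribution). An adjusted p below 0.1, 1.5- and 4-fold thresholds, and each IP replicate left out were also tried. No values under the alternatives are given here for Cpeb4 or for the genes most like Epor and Kit.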

Additional observations from a re-analysis of the deposited data

How the results depend on the processing

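Counts are given for members that rose and fell, then for the wider lists. Quantile normalization again gave 0 and 4 members against IgG, 0 fallen members against input, 24 and 18 wider genes against IgG, and 2 members at least 2-fold higher in IgG than input. Over all tested genes it moved the calls against IgG from 4866 up and 2738 down (64.0% upward) to 4308 and 4065 (51.5%). Differences from IgG changed sign for Kit (-0.59), Cish (-0.028), Bcl2l1 (-0.34), Araf (-0.65), Pias1 (-0.44) and Ccnd3 (-0.50), and that of Pias3 from input became 0.016. Without a filter 1 member fell against input and 0 wider genes fell against IgG; with the 60th percentile filter 1 member and 3 wider genes fell against IgG. Plain eBayes with ties gave 1 and 1 members against IgG, 0 fallen members against input, and 26 and 5 wider genes against IgG. With trend and robust 1 member rose against IgG, 0 fell against input, and 22 and 4 wider genes were called against IgG. The common-spread test had 1 member and 3 wider genes fallen against IgG, and 22 and 13 wider genes against input. At an adjusted p below 0.1, 1 member and 3 wider genes fell against IgG. By size, a 1.5-fold threshold gave 2 members above IgG, 2 above and 1 below input, and 2 higher and 4 lower in IgG than input; a 4-fold threshold gave 0 above input. Leaving out each IP replicate in turn gave 0 to 1 members at least 2-fold above IgG (Stat5b without replicate 2) and 0 to 1 at least 2-fold below input (Socs3 without replicate 2), and no test. No paired analysis was possible because the IgG and input arrays have no replicate numbers in the labels. Of 90 such counts under alternatives 57 stayed within 1.5 times. With 1 array per control, the spread of IgG and input could not be measured.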
